A study of Mus musculus with 18 samples.

Results

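The comparison described here set the nascent RNA of S3 cells against that of S1 cells, the start and the end of maturation within the CD71-high part of the erythroid lineage of mouse fetal liver. Its members were the 3 S3 libraries and the 3 S1 libraries, 6 of the 18 libraries in the series, and all genes of the deposited count table that passed a filter on low counts, 16555 genes. All cells came from livers of C57BL/6 embryos at e12.5 to e13.5 and were sorted as lineage-negative (Lin-), after staining for CD41, CD45R, CD3e, CD11b and Ly-6G/6C. The study's methods also give, before the sort, a magnetic depletion of cells stained for Ter119 to enrich progenitors. S1 cells were CD71 high and Ter119-, which the study names late erythroid colony-forming units. S3 cells were CD71 high and Ter119 high, and S2 cells, used here only as the point between them, were CD71 high and Ter119 medium. After the sort all cells rested for 6 h in erythroid medium, and 500 µM 4-thiouridine (4sU) was then added for 45 min. Only RNA that took up 4sU was purified and sequenced, so the counts are read as RNA made in that window. Carry-over of unlabelled RNA was not measured here. The populations are gates on surface proteins of primary cells. Each may hold cells at several stages, and in bulk libraries fewer cells of a type and less RNA per cell cannot be told apart.

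Terminal erythropoiesis is the last stretch of red cell formation, in which progenitors that depend on stem cell factor and erythropoietin divide a few more times while they fill with hemoglobin. During it the cells build the spectrin skeleton of the red cell membrane, condense their chromatin, clear their mitochondria and ribosomes and finally expel the nucleus. CD71 is the transferrin receptor, the product of Tfrc, which brings iron into the cell. Ter119 is a surface antigen of maturing erythroid cells and has no count of its own. The comparison asked how transcription differed between the start and the end of the CD71-high part of this stretch, over which Ter119 is gained.

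The libraries differed in depth and, more so, in how many genes they held. Totals ran from 27734246 to 40567976 counts in S1, from 25303249 to 36531205 in S2 and from 17978747 to 32762197 in S3. When all were compared at the depth of the smallest, the S1 libraries were expected to hold 16497 to 20037 genes and S3 replicates 1, 2 and 3 to hold 11481, 16052 and 12745. Of 1470 genes with a mean of 100 to 300 counts in S1, 50.3% were at 0 in S3 replicate 1, 10.5% in S3 replicate 2 and 34.4% in S3 replicate 3, against at most 0.68% in any S1 library. The 1000 most abundant genes of each library took 48.7 to 50.7% of the S1 counts and 61.8 to 68.9% of the S3 counts. S1 replicate 3 stood apart from the other S1 libraries toward S3. Its first principal component was -85.8, against -138.3 and -139.2 in S1 replicates 1 and 2 and 74.4 to 217.9 in S3. S3 replicates 1 and 3 are therefore left out in an added setting whose values stand beside the results, chosen after the data were seen. It leaves S3 with 1 library, which is assumed to vary like the other populations, so a call lost there may be lost to the smaller n and does not show that a change was absent. The part of library complexity in any result was not tested.

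**Figure D1:**
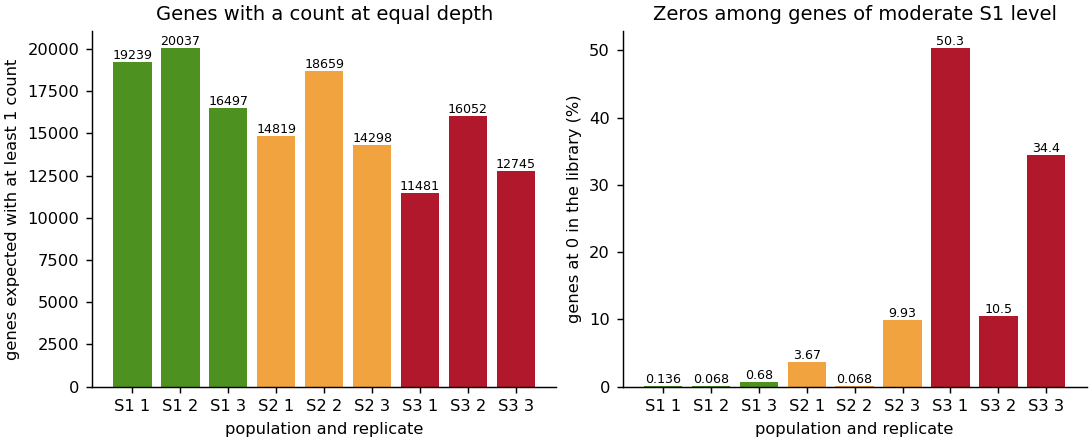
Left, genes expected to hold at least 1 count in each of the 9 CD71-high libraries when all are compared at 17978747 counts. Right, the percent of 1470 genes with a mean of 100 to 300 counts in S1 that are at 0 in each library. S3 replicates 1 and 3 hold 11481 and 12745 genes and have 50.3% and 34.4% of these genes at 0.

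Nascent RNA of 1193 genes rose from S1 to S3, and that of 1997 genes fell (adjusted p under 0.05, edgeR quasi-likelihood test, n = 3 and 3, Benjamini-Hochberg adjustment over 16555 genes). These are 7.21% of the genes tested for those higher and 12.1% for those lower, the background against which each gene group below is read. The median log2 fold change was 2.02 among the genes called higher and -4.56 among those called lower. Of the genes called lower, 709 had at most 3 counts in each S3 library, so for them a fitted fold change depends on the prior count and is no bound. With these genes set against a floor of 3 counts per library, the median of the genes called lower was -3.16, and 663 of them were lower by at least 16-fold, while 128 of the genes called higher were higher by as much. Genes called higher took 17.1% of all S1 counts and 50.7% of all S3 counts, and genes called lower took 13.1% and 2.1%. S3 replicate 2, the S3 library with the most genes, was below every S1 library by at least 2-fold for 1652 of the 1997 genes called lower and above every S1 library by as much for 896 of the 1193 called higher, against 4717 and 2211 of all 16555 genes. It took part in the calls, so these counts are a description.

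**Figure D2:**
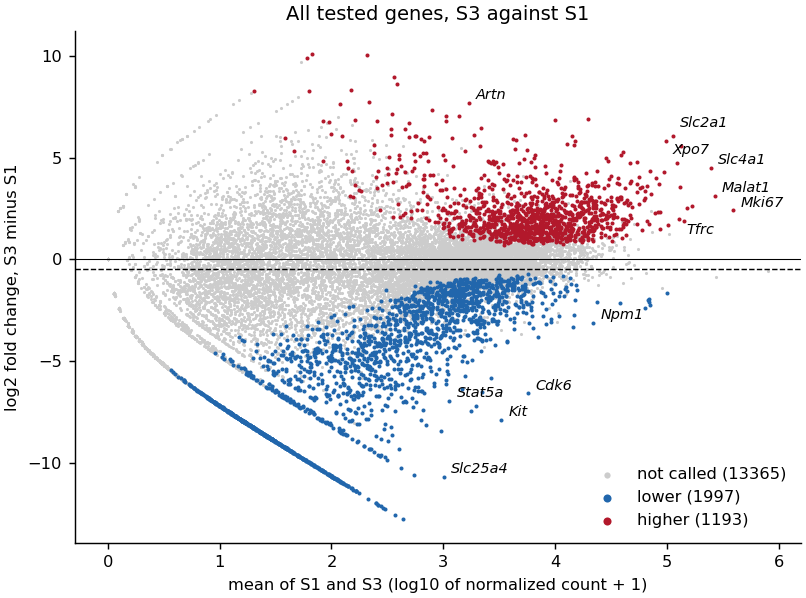
Each point is 1 of 16555 genes, placed by the mean of its S1 and S3 normalized counts (x, log10 of the value plus 1) and its log2 fold change of S3 against S1 (y). Red marks 1193 genes called higher and blue 1997 called lower, the dashed line is the median of all genes at -0.47, and the blue diagonal bands are genes at or near 0 in S3.

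The 2 counts depended on how the libraries were scaled and on which were used. The median log2 fold change of all genes was -0.47 with the main scaling (trimmed mean of M-values, TMM) and -1.11 with plain library totals. In that setting the log2 fold change of Tfrc moved from 1.97 to 1.32, while genes at 0 in all S3 libraries hardly moved (Itgb2 from -10.79 to -10.83). With library totals 586 genes were higher and 3900 lower, so that 86.9% of the called genes were lower, against 62.6% with the main scaling. Requiring at least 10 counts in every S1 and S3 library, which by its construction removes genes that reached 0 in S3, left 1072 higher and 1171 lower, 52.2% of those called. With the replicate number as a block, 1841 were higher and 3018 lower. Leaving out S1 replicate 1 gave 673 and 1151, leaving out S1 replicate 2 gave 591 and 1131, and leaving out S3 replicate 3 gave 769 and 1270. Without S3 replicates 1 and 3, with 1 S3 library, 436 rose and 567 fell, and the main calls held 427 and 483 of these. Of the 163 genes named below that were called, 89 kept their call in that setting. No gene was called in the opposite direction in any of these settings.

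S2 took no part in the contrast itself, but its libraries entered the same fit. The S2 mean fell between the S1 and S3 means for 1153 of the 1193 genes called higher (96.6%) and for 1760 of the 1997 called lower (88.1%), against 58.4% of all genes tested. Called genes were picked for a gap between S1 and S3, which by itself makes a mean between them more frequent. The share of all genes is thus no like background, and the counts are a description. By the medians of these called genes, more of the distance lay in the step from S2 to S3. Genes called higher had a median log2 fold change of 0.55 in the first step and of 1.44 in the second, and genes called lower of -0.58 and -3.37, the latter with the 709 genes near 0 in S3 at their fitted values. From S1 to S2 no gene passed at an adjusted p under 0.05 (edgeR), with 166 higher and 501 lower at an unadjusted p under 0.05, and from S2 to S3 1548 genes passed. Such numbers do not compare the steps with each other. The direct test of their difference, given below, called 26 genes lower and 0 higher. With at least 10 counts required in every S1 and S3 library it called 0 and 0.

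Kit, the receptor for stem cell factor on progenitors (chr5:75574987-75656722, RefSeq on GRCm38.p6), fell to or near 0. Its normalized count, scaled to the mean effective library size, was 7595, 7269 and 4853 in S1 replicates 1 to 3, 3755, 2445 and 534 in S2, and 0, 79.4 and 0 in S3. The highest S3 library lay far under the lowest S1 library (log2 fold change -7.85 ± 1.22 SE, adjusted p = 0.000609, edgeR), and the value was -6.41 without S3 replicates 1 and 3. Without S3 replicate 2, which held all S3 counts of Kit, it was -15.71, a fitted value against counts of 0. Slc4a1, the chloride-bicarbonate exchanger band 3 of the red cell membrane (chr11:102348820-102365281), moved the other way, with 9054, 9021 and 44980 in S1, 36450, 47800 and 138900 in S2, and 320600, 467800 and 628800 in S3. All S3 libraries were above all S1 libraries, of which replicate 3 was the highest (4.49 ± 0.72, adjusted p = 0.000796, edgeR). Tfrc, whose product is high on the surface of both populations, had 44420 to 59500 normalized counts in S1 and 193200 to 211100 in S3. Its nascent RNA rose by 1.97 ± 0.32 on the log2 scale (adjusted p = 0.000768, edgeR) and by 1.32 with library totals. Kit and Slc4a1 were the markers set for the 2 ends, and each stood on the side its label gives.

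**Figure D3:**
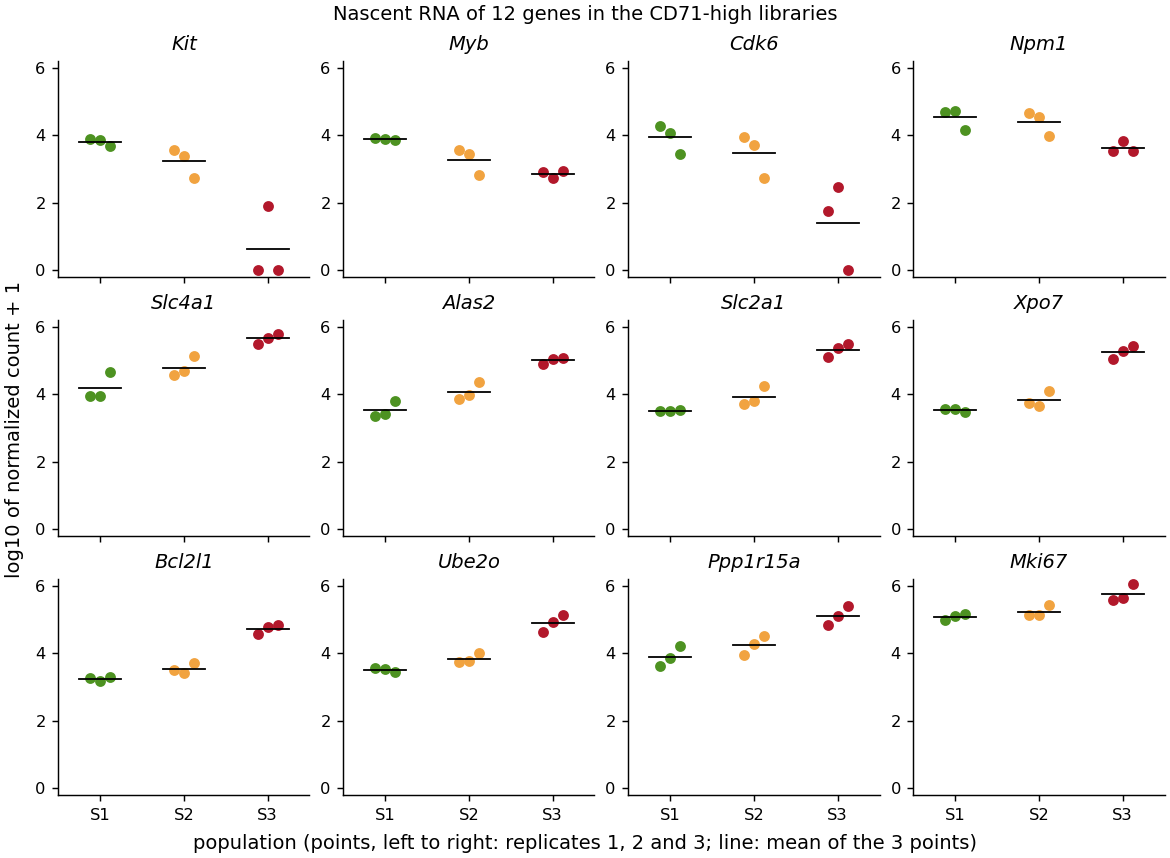
Log10 of the normalized count plus 1 (y) in the 3 libraries of S1, S2 and S3 (x) for 12 genes. Points are replicates 1, 2 and 3 from left to right and lines are means of the 3 points. Kit reaches 0 in 2 S3 libraries, while Slc2a1, Xpo7, Bcl2l1 and Ube2o are nearly level among S1 libraries and stand apart in all S3 libraries.

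Of 19 genes of stem and progenitor cells tested, 10 were lower and 1 higher. Myb, a transcription factor that keeps progenitors dividing, had 7305 to 8289 normalized counts in S1 and 534 to 855 in S3 and had close replicates at both ends (-3.43 ± 0.50, adjusted p = 0.000398, edgeR). Its fall was even over the 2 steps, at -1.72 and -1.71, while the medians of the tested members of the list were -2.33 and -0.21. Myc, the growth regulator, fell from 8859 to 18060 in S1 to 989 to 3065 in S3 (-2.79). Fli1, Meis1, Hlf, Erg and Mycn fell from low levels, with S1 means of 9.83 to 360 normalized counts. Hlf, Erg and Mycn were at 0 in all S3 libraries. The call of Erg was lost when any S3 library, S1 replicate 2 or S1 replicate 3 was left out, and that of Meis1 without S1 replicate 1, S1 replicate 2, S3 replicate 2 or S3 replicate 3. Ikzf1 and Zfp36l2, regulators of lymphoid and progenitor genes, fell by less (-0.92 and -1.61) and kept S3 means of 9434 and 3707. Lyl1, a relative of Tal1, was the 1 member that rose (2.14). Gata2, the GATA factor of progenitors, did not pass, with 216 normalized counts in S3 replicate 2 and 2.29 and 0 in S3 replicates 1 and 3, but it passed with the replicate block (-2.99, adjusted p = 0.0288, edgeR). Without S3 replicate 2 the values of Gata2 and Fli1 moved from -2.37 to -8.43 and from -5.60 to -11.52. Without S3 replicates 1 and 3 the list had 3 members lower and 1 higher.

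Erythroid transcription factors ran the opposite way, with 11 of 17 tested higher and 0 lower. The largest rises were in Mxd1, a partner of MAX that opposes MYC (1226 to 6255 normalized counts in S1, 19240 to 55800 in S3, log2 fold change 3.59), and E2f2, an E2F factor of late erythroblasts (3.51). Nfe2, the subunit of a globin enhancer-binding complex, rose by 2.95, Foxo3, a regulator of antioxidant and autophagy genes, by 2.93, Klf3, a KLF family repressor, by 2.52, and Tal1, a core hematopoietic factor, by 2.11. The best-known pair, Gata1 and Klf1, did not pass. Gata1 had 5622 to 11350 normalized counts in S1 and 9975 to 19490 in S3, and the groups overlapped (0.95 ± 0.41, adjusted p = 0.109, edgeR). Klf1 had 7316 to 19680 in S1 and 20340 to 37460 in S3, with no overlap (1.40 ± 0.51, adjusted p = 0.064). With the replicate block both passed, at 0.99 and 1.51 (adjusted p = 0.00589 and 0.000822, edgeR). With library totals 8 members were higher and 1 lower, and without S3 replicates 1 and 3 there were 6 and 0.

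Cytokine signalling genes split, with 3 of 20 tested higher and 5 lower. Stat5a and Stat5b encode the transcription factors that the erythropoietin receptor and its kinase JAK2 activate. Stat5a had 2407, 2150 and 2143 normalized counts in S1, 1694, 1222 and 703 in S2, and 0, 32.9 and 19.2 in S3, a fall of all S3 libraries far below S1 (-6.92 ± 0.73, adjusted p = 5.14e-05, edgeR). Stat5b fell by 1.5 on the log2 scale and kept 778 to 2475 normalized counts in S3. The phosphatase Ptpn6 (-4.83) and the adaptor Sh2b3 (-0.94), both inhibitors of cytokine signals, also fell, but the call of Sh2b3 was lost in 9 of 17 alternatives. Pim1, a kinase, rose by 3.49, and Socs3, an inhibitor of cytokine signals, by 4.69, though Socs3 did not pass with library totals (adjusted p = 0.0507, edgeR). Pim1 had 4254 to 14590 normalized counts in S1 and 80720 to 138900 in S3. Csf2rb2 rose from 6.07 to 71.5 in S1 to 417 to 2081 in S3, but it shares most of its sequence with Csf2rb, which did not pass, and the split of reads between them is uncertain. Epor and Jak2 had log2 fold changes of 1.52 and 1.48 and did not pass (adjusted p = 0.056 and 0.074, edgeR), and both passed with the replicate block (1.57 and 1.47), while Jak2 was at 0.82 without S3 replicate 3. With the block 7 members were higher and 7 lower, with library totals 2 and 10, and without S3 replicates 1 and 3 there were 2 and 3.

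All 9 genes of heme synthesis were tested, and 7 were higher and 0 lower. Alas2, the erythroid enzyme of the first and rate-limiting step, rose most. It had 2205, 2671 and 6349 normalized counts in S1 and 78740, 108600 and 123200 in S3 (4.79 ± 0.52, adjusted p = 5.46e-05, edgeR). Alas1, which catalyses the same step in other tissues, had 842 to 1008 in S1 and 0, 548 and 82.0 in S3 and did not pass (-2.14 ± 0.98, adjusted p = 0.133), but did without S3 replicate 2 (-4.47, adjusted p = 0.0061, edgeR). Ppox rose by 2.82, Fech, which inserts the iron, by 2.71, Urod by 2.25 and Alad by 2.06. Cpox rose by 1.46 and was the most even within groups, with 31420 to 32120 in S1 and 82220 to 97250 in S3. Uros had a log2 fold change of 1.88 (adjusted p = 0.0962) and passed with the replicate block (2.43, adjusted p = 0.000221) and without S1 replicate 3 (3.00). The count of 7 was the same with library totals, and without S3 replicates 1 and 3 it was 6.

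Of 8 globin genes tested, 5 were higher and 0 lower. The adult genes rose together, with log2 fold changes of 5.12 for Hba-a2, 4.31 for Hbb-b1, 4.06 for Hba-a1 and 3.93 for Hbb-b2. Hbb-b1 had 4086, 5251 and 17520 normalized counts in S1 and 126700, 207900 and 197900 in S3. The alpha genes are near copies of each other, as are the beta genes, so the split of counts between copies is uncertain. The embryonic gene Hbb-y rose from 3.84, 3.94 and 49.5 to 2290, 797 and 3237, a log2 fold change of 6.79 ± 1.44 (adjusted p = 0.00441, edgeR). The other embryonic genes Hba-x and Hbb-bh1 had log2 fold changes of 4.33 and 3.10 and did not pass (adjusted p = 0.067 and 0.162), but did without S1 replicate 3 (6.86 and 6.04) and with the replicate block (5.52 and 4.87). All listed globin genes together took 0.0383 to 0.14% of the S1 counts and 0.778 to 1.03% of the S3 counts. With the block 7 were higher, and without S3 replicates 1 and 3 there were 4.

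Of 16 iron genes tested, 6 were higher and 2 lower, the falls near the 12.1% of all genes. The mitochondrial iron importer Slc25a37 (3.69), the ferritin receptor of autophagy Ncoa4 (3.06) and the mitochondrial transporter Abcb10 (2.67) rose most, followed by Tfrc, Glrx5 (1.68) and Ftl1 (1.5), of which Ftl1 has near-identical pseudogenes. Ncoa4 gained 0.39 in the first step and 2.67 in the second. Aco1, which as iron regulatory protein 1 binds iron-responsive elements in messenger RNAs, fell from 961 to 1793 normalized counts in S1 to 0, 338 and 14.0 in S3 (-3.51). Fbxl5, the iron-sensing subunit that degrades iron regulatory protein 2, fell by 1.08. The call of Aco1 was lost in 5 of 17 alternatives and that of Fbxl5 in 9, and Aco1 was at -7.49 without S3 replicate 2. The other 8 members, with the ferritin heavy chain gene among them, did not pass. With library totals 4 were higher and 3 lower, and without S3 replicates 1 and 3 there were 3 and 0.

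The red cell membrane and its skeleton were among the groups with the most genes called, 22 of 28 higher and 0 lower, at a median log2 fold change of 2.41. The skeleton gene Sptb, which encodes a spectrin chain, rose by 2.63, and Ank1, the ankyrin that ties spectrin to band 3, by 2.54. Sptb had 40110 to 52320 normalized counts in S1 and 229300 to 336700 in S3. Genes of the junction proteins rose too, with Dmtn (dematin) at 3.85, Epb42 (protein 4.2) at 3.72, Tmod1 (tropomodulin) at 3.66 and Epb41 (protein 4.1) at 3.58. Epb41 was the most uniform of these, with 17330 to 21850 in S1, 25570 to 47350 in S2 and 193500 to 262300 in S3 (SE 0.34, adjusted p = 1.93e-05, edgeR). The blood group genes Kel and Rhd rose by 3.04 and 2.86. The other 6 members, with Car2, a carbonic anhydrase (1.72, adjusted p = 0.0715), did not pass, though Car2 did with the replicate block (1.91, adjusted p = 0.000116). With library totals 17 of the 28 were higher, and without S3 replicates 1 and 3 there were 14, with 0 lower in either.

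For several genes on which these results turn, the RefSeq promoter windows of GRCm38.p6 are printed as examples of a promoter that gained and one that lost nascent RNA. Each window has 300 bases, most of them before the annotated start, read 5′ to 3′ on the gene's own strand. Capitals mark 2 short motifs on either strand, AGATAA (the letters that GATA factors read, TTATCT on the other strand) and CACCC (the letters that KLF factors read, GGGTG on the other strand), which do not share bases with each other. Shown are Alas2 (chrX:150547167-150547466, plus strand), Epb42 (chr2:121036828-121037127, minus), Slc2a1 (chr4:119108495-119108794, plus), both listed windows of Ube2h (chr6:30304490-30304789 and chr6:30243754-30244053, minus), all from genes that rose, and Kit (chr5:75574737-75575036, plus), which fell and whose second listed window overlaps this one.
Alas2: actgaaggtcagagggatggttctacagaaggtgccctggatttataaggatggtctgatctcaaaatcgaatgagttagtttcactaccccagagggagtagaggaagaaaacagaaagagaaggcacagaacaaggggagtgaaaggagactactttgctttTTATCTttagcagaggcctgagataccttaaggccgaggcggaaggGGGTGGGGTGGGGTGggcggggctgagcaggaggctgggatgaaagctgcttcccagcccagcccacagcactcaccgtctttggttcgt
Epb42: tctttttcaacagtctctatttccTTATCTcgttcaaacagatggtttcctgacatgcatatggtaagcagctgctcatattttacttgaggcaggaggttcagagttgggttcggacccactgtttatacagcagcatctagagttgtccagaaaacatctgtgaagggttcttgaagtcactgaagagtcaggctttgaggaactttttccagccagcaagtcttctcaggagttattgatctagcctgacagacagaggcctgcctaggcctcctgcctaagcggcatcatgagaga
Slc2a1: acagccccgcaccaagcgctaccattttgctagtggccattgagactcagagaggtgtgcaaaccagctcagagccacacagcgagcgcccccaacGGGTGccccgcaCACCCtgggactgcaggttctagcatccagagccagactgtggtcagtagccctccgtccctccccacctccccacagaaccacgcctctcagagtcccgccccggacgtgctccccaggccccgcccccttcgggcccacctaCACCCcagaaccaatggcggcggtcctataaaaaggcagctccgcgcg
Ube2h, first window: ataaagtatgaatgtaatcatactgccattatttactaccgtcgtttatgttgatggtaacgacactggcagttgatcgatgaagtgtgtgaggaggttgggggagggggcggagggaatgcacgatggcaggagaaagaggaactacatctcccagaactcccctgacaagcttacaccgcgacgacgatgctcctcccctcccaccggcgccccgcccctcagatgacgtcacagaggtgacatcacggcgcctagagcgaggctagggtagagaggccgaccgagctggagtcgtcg
Ube2h, other window: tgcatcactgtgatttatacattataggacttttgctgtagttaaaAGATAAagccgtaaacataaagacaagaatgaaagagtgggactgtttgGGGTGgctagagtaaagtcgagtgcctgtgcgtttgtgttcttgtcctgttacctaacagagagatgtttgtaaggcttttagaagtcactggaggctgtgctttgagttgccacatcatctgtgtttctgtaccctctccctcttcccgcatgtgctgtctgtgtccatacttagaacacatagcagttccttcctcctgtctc
Kit: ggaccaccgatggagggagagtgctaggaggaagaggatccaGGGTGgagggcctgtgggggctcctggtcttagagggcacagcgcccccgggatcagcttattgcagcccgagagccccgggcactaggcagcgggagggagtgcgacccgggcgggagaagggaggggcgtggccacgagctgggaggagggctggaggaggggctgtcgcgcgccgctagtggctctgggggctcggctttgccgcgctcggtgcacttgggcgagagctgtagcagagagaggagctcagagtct
Alas2 held 1 AGATAA and 3 CACCC, Epb42 held 1 and 0, Slc2a1 held 0 and 3, and Kit held 0 and 1. Of the windows of Ube2h, the one at chr6:30304490 held neither and the one at chr6:30243754 held 1 of each. Such matches are common. Among 10731 tested genes with a listed window, 8.22% had AGATAA in at least one window and 67.1% had CACCC. Among 927 genes called higher the shares were 8.74% and 68.5%, and among 1471 called lower 7.82% and 70.1%. Both motifs in one window were found for 5.93% of the genes called higher, 4.96% of those called lower and 4.69% of all. The shares lay within a few percentage points of each other, and a match is a description and not a binding site.

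Ubiquitin enzymes of erythroid remodelling had 21 of 25 members tested higher and 1 lower, at a median log2 fold change of 2.82. The conjugating enzymes Ube2h and Ube2o, the latter known to clear ribosomal proteins from reticulocytes, rose most. Ube2h had 1593, 1487 and 3030 normalized counts in S1 and 44350, 57820 and 70500 in S3 (4.82 ± 0.64, adjusted p = 0.0002, edgeR). Ube2o had 3726, 3443 and 2805 in S1, 5401, 5977 and 9969 in S2, and 44190, 85900 and 137800 in S3, so that no S1 library came near any S3 library (4.75 ± 0.44, adjusted p = 1.92e-05). Ube2l6 rose by 4.22, and the RING-finger ligases Trim10 and Trim58, the second of which degrades dynein in late erythroblasts, by 4.08 and 2.89. Nedd4l, a HECT ligase of ion channels, fell from 481 to 1292 in S1 to 4.59, 46.6 and 3.49 in S3 (-5.40). With library totals 19 were higher and 2 lower, and without S3 replicates 1 and 3 there were 15 and 1.

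Autophagy genes had 10 of 21 tested higher and 0 lower. Ulk1, the kinase that starts autophagy, rose most (908 to 3774 in S1, 9874 to 21940 in S3, log2 fold change 2.99). Gabarapl2 and Gabarap, which coat autophagosomes, rose by 2.68 and 1.96, and Bnip3l, the receptor that marks mitochondria for removal in reticulocytes, by 2.20. With library totals 3 were higher and 1 lower, and without S3 replicates 1 and 3 there were 3 and 0.

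Among genes of the nuclear lamina, nuclear transport and chromatin condensation, 8 of 23 were higher and 0 lower. Xpo7, an exportin abundant in late erythroblasts, stood far from the rest. It had 3653, 3572 and 3071 normalized counts in S1, 5604, 4502 and 12490 in S2, and 112300, 190600 and 269900 in S3 (5.80 ± 0.51, adjusted p = 1.92e-05, edgeR). Xpo1, the general exportin, had a log2 fold change of 0.25 and did not pass. The condensin genes Smc4, Ncapd2, Smc2 and Ncapg rose by 1.94, 1.61, 1.30 and 1.28 (Ncapd2 was at 1.06 without S3 replicate 3 and did not pass), the lamin B receptor Lbr by 2.12 and the chromatin protein Hmgb2 by 1.78. Without S3 replicates 1 and 3 there were 3 higher and 0 lower. With library totals 4 were higher and 5 lower, and the list's median moved from 0.76 to 0.07. The median of all genes was -1.11 in that setting.

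Of 21 glucose genes tested, 3 were higher and 3 lower, against 7.21% and 12.1% of all genes, so that the falls were near that share. Slc2a1, the glucose transporter GLUT1, had 3102, 3209 and 3515 normalized counts in S1, 5015, 6458 and 18210 in S2, and 126300, 228900 and 304300 in S3 (6.07 ± 0.57, adjusted p = 1.92e-05, edgeR). The S1 libraries differed among themselves by far less than from S3. Slc2a4, the insulin-responsive transporter, rose by 4.72 from 23.8 to 508 in S1, and Bpgm, which makes the 2,3-bisphosphoglycerate that lowers the oxygen affinity of hemoglobin, by 3.96. Ldha fell by 4.07, Pkm, the pyruvate kinase of most dividing cells, by 3.86 and the phosphofructokinase Pfkm by 1.30. Ldha had 1911 to 11310 in S1, with replicate 3 the lowest, and 136 to 578 in S3. The count of falls was 9 with library totals, 6 with the replicate block and 0 without S3 replicates 1 and 3.

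Antioxidant genes had 11 of 23 tested higher and 1 lower. Gpx1 (2.81), Gss (2.63), Blvrb (2.49), Cat (2.30) and Prdx2 (2.15), enzymes that red cells use against peroxides and heme products, were the largest rises. Cat was even in both groups, with 5989 to 7687 in S1 and 28410 to 39020 in S3 (SE 0.26, adjusted p = 6.57e-05, edgeR). Prdx6 fell by 2.33. With library totals 7 were higher and 3 lower, and without S3 replicates 1 and 3 there were 7 and 0.

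Genes of the integrated stress response, which in erythroid cells is set off by the heme-regulated kinase, had 8 of 16 tested higher and 1 lower. The kinase gene Eif2ak1 rose by 2.94 and its effector Atf4 by 1.58. Ppp1r15a, the phosphatase subunit that ends the response, had 4352, 7386 and 15990 normalized counts in S1 and 70540, 124500 and 252500 in S3 (4.01 ± 0.65, adjusted p = 0.000821, edgeR). Trib3 rose by 4.01, Ddit3 by 3.54 and Atf5 by 3.48. Eif2ak4, the kinase that senses amino acid shortage, fell by 1.62. With library totals 6 were higher and 1 lower, and without S3 replicates 1 and 3 there were 5 and 0.

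The BCL2 family of apoptosis regulators had 13 members tested, 3 higher and 1 lower. Bcl2l1, which encodes the survival factor BCL-XL, had 1901, 1478 and 1931 normalized counts in S1, 3142, 2584 and 5153 in S2, and 36770, 58940 and 69690 in S3 (4.96 ± 0.45, adjusted p = 1.92e-05, edgeR). Mcl1, another survival gene, rose by 0.90 and the death-promoting Bbc3 by 2.83, but neither passed with library totals (adjusted p = 0.521 and 0.0966, edgeR). Bid, which links death receptors to mitochondria, fell by 2.82. Bcl2 had 60.7 to 510 in S1 and 48.2, 0 and 0 in S3 and did not pass (adjusted p = 0.106, edgeR), but did with the replicate block (adjusted p = 0.00727), where 3 members were lower. It also passed without S3 replicate 1, which held all its S3 counts, where the fitted value moved from -4.29 to -11.28. With library totals, and without S3 replicates 1 and 3, 1 member was higher, with 2 and 1 lower.

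Cell cycle genes were read by phase. Of 33 genes of mitosis and cytokinesis tested, 31 were higher and 0 lower, at a median log2 fold change of 1.91. The largest rises were in Ube2c, which feeds the anaphase-promoting complex (2.62), and in the kinesins Kif18b (2.62) and Kif23 (2.53). Mki67, the proliferation marker, had 98650, 125400 and 147400 normalized counts in S1 and 371900, 438400 and 1154000 in S3, where replicate 3 was more than 2-fold above the other S3 libraries (2.40 ± 0.45, adjusted p = 0.00219, edgeR). Cdk1 rose by 1.78 and Aurkb by 1.91, and Mad2l1 and Ttk, of the spindle checkpoint, had log2 fold changes of 0.74 and 0.77 and did not pass, though Mad2l1 did with the replicate block (adjusted p = 0.0484). Without S3 replicate 3 Ttk was at 0.06. With library totals 18 were higher and 0 lower, and without S3 replicates 1 and 3 there were 16 and 0.

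Of 36 replication genes tested, 3 were higher, near the 7.21% of all genes, and 1 was lower, at a median log2 fold change of 0.14. The ribonucleotide reductase subunit Rrm2 (1.74), the primase subunit Prim1 (1.03) and the origin protein Orc1 (1.00) rose, and Gins2, of the replicative helicase, fell by 1.37. The calls of Prim1, Orc1 and Gins2 were lost in 10, 8 and 7 of 17 alternatives. None of the genes of the MCM helicase passed. With library totals 1 was higher and 9 lower, and without S3 replicates 1 and 3 there were 0 of each.

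Regulators of the G1 phase had 7 of 18 tested higher and 2 lower, the falls near the 12.1% of all genes. The kinases that D cyclins activate both fell, Cdk6 from 19170, 12040 and 2877 normalized counts in S1 to 57.4, 296 and 0 in S3 (-6.57 ± 1.33, adjusted p = 0.00331, edgeR) and Cdk4 by 2.88 on the log2 scale. Cdkn2c, an inhibitor of both kinases, rose from 232 to 834 in S1 to 4749 to 10110 in S3 (3.92), and Cdkn1a, a general inhibitor, by 2.53. Rb1, E2f8 and Ccne2 rose by 1.94, 2.24 and 1.66, though Ccne2 was at 1.05 and did not pass without S3 replicate 3. Ccnd2 and Ccnd3 had log2 fold changes of -4.28 and 1.05 and did not pass, but did with the replicate block (adjusted p = 0.0011 and 0.04) and without S1 replicate 3, where Ccnd3 was at 2.41. With library totals 2 were higher and 3 lower. Without S3 replicates 1 and 3 there were 0 of each, with Cdk6 at -5.31 and Cdk4 at -2.03.

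Of 30 ribosome biogenesis genes tested, 13 were lower and 0 higher, at a median log2 fold change of -2.11. Polr1b, a large subunit of RNA polymerase I, fell from 1385 to 5362 in S1 to 55.8 to 470 in S3 (-3.58). Wdr43, Npm1 and Utp20, nucleolar proteins of ribosome assembly, fell by 3.15, 3.12 and 3.10, and nucleolin (Ncl) by 2.39. Npm1 had 50220, 52100 and 14810 normalized counts in S1 and 3526, 6604 and 3380 in S3. S1 replicate 3 was nearest to S3 for each of these genes. The call count was 28 with the replicate block, 24 with library totals and 0 without S3 replicates 1 and 3, where the median was -1.65. Of 77 genes of the cytosolic ribosomal proteins tested, 2 were lower, Rpl15 (-1.35) among them, and 0 higher, at a median of -0.81 against -0.47 for all genes. With the replicate block 29 were lower, with library totals 21, and without S3 replicates 1 and 3 none passed (edgeR), with the median at -0.48 against -0.38 for all genes in that setting. Many ribosomal protein genes have processed pseudogenes, so their counts are uncertain.

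Genes encoded in mitochondrial DNA took 6.03 to 6.95% of the S1 counts and 1.53 to 2.93% of the S3 counts. Of 22 tested, 10 were lower and 0 higher. The subunit gene mt-Nd3 fell by 3.06 on the log2 scale. The transfer RNA gene mt-Tm had 63, 27 and 12 counts in S1 and 0 in all S3 libraries, and its call was lost when any S3 library, S1 replicate 1 or S1 replicate 2 was left out. The abundant messenger RNAs mt-Nd1 (-2.25), mt-Cytb (-2.10) and mt-Co1 (-1.63) fell. The ribosomal RNAs mt-Rnr1 and mt-Rnr2 had -0.88 and -0.58 and did not pass, but with library totals both did (-1.47 and -1.20, adjusted p = 0.0202 and 0.0219, edgeR), and 14 members were lower in that setting. Without S1 replicate 1 the value of mt-Rnr1 was -0.58. Of the counts, mt-Rnr2 took 3.22% in S1 and 1.40% in S3. Without S3 replicates 1 and 3 no member passed (edgeR), and the median was -1.76 against -2.13.

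Integrins, adhesion and leukocyte surface genes had 9 of 20 tested lower and 2 higher. Itga5, the fibronectin receptor chain of erythroid progenitors, had 900, 1128 and 902 counts in S1 and 0, 1 and 0 in S3, at least 154-fold lower against a floor of 3 counts per library. Itgb2 had 356, 248 and 192 counts in S1 and 0 in all S3 libraries, at least 40.9-fold lower. Vav1, a signalling protein of blood cells, fell by 6.09 (-9.38 without S3 replicate 2), and Ptprc (CD45), Itgal, Rhoh, Coro1a, Lcp2 and Cd48 fell from S1 means of 23.8 to 88.7 normalized counts. Itga4, whose product holds erythroblasts to macrophages, had 17070 to 27540 in S1 and 38470 to 56990 in S3 and did not pass (1.11, adjusted p = 0.103), but passed with the replicate block (1.13, adjusted p = 0.00274). Cd24a, a surface protein of erythroblasts, rose by 2.32 and Lcp1, an actin-bundling protein, by 2.61. Without S3 replicates 1 and 3, 5 were lower and 1 higher.

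Markers of other cell types summed to less in every S1 and S3 library than in any library of lineage-positive cells, except the hepatocyte markers in S1. The 11 macrophage markers summed to 3.06 to 3.59 CPM (counts scaled to a fixed library total) in S1, mostly Cd68, and 0.0333 to 2.96 in S3, with 2 and 8 of them at 0 in all libraries of the group, C1qa among them in both, against 967 to 1310 CPM in lineage-positive cells. The 11 neutrophil markers summed to 0.974 to 1.82 CPM in S1 and 0.0333 to 2.01 in S3, against 4240 to 6560 in lineage-positive cells. The 12 lymphoid markers summed to 0.958 to 2.59 and 0 to 0.824 (59.2 to 152 in lineage-positive cells) and the 8 mast cell markers to 0.252 to 0.876 and 0 to 0.0556 (315 to 674). The 10 hepatocyte markers summed to 1.66 to 3.52 in S1 and 0 to 0.278 in S3, against 1.15 to 5.02 in lineage-positive cells. In S1, 2 neutrophil, 3 lymphoid, 5 mast cell and 1 hepatocyte marker were at 0 in all libraries, and in S3 5, 8, 7 and 9. Ly6g, Cd3e, Fcer1a and Ttr were among those at 0 in both, and other members of each of these lists had counts in S1. The 7 endothelial markers summed to 3.89 to 14.1 CPM in S1 and 5.34 to 9.23 in S3 (210 to 356 in lineage-positive cells). The 10 megakaryocyte markers summed to 42.3 to 141 and 40.8 to 78.7 CPM (510 to 1350 in lineage-positive cells), most of it from Itga2b and Vwf, with Ppbp and Gp1bb at 0 in both. The part of other cells in the falls of leukocyte genes was not tested.

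**Figure D4:**
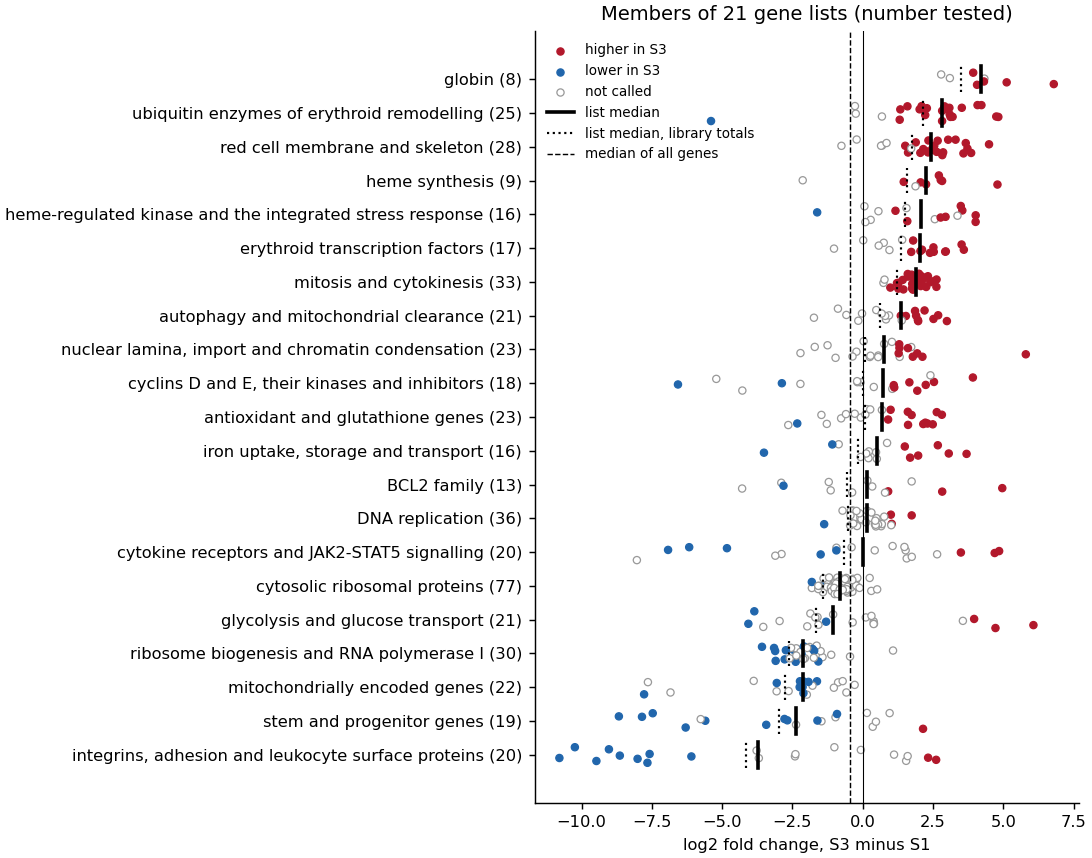
Log2 fold changes of S3 against S1 (x) for the tested members of 21 gene lists (y, number tested in brackets). Red points were called higher, blue called lower and open points not called, solid bars are list medians, dotted bars the medians with library totals, and the dashed line is the median of all genes at -0.47. Mitosis (31 of 33), membrane (22 of 28) and ubiquitin genes (21 of 25) lie to the right, and ribosome biogenesis, mitochondrial, progenitor and adhesion genes to the left.

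A ratio of 2 genes within a library depends on the scaling of that library only where a gene is near 0. For 22 pairs of related genes, set so that the gene known from late erythroid cells is divided by its more general or earlier relative, the log2 ratio was taken in each of the 6 libraries. In 18 of the 22 pairs all S3 libraries were above all S1 libraries (exact permutation test, two-sided, p = 0.1 in each, the smallest that 3 against 3 libraries can give). Of all single genes tested, S3 lay above S1 without overlap for 13.6% and below for 27.4%. The pairs and their direction were set with earlier results known, so the count is a description. This test thus cannot reach 0.05 for a single pair. The ratio of Alas2 to Alas1 was 1.37, 1.39 and 2.75 in S1 and 11.9, 7.57 and 10.2 in S3, where Alas1 was at 0 in replicate 1 and the added 0.5 CPM sets that value. Bcl2, Gata2, Hk2 and Ccnd2 were also at 0 in 1 or 2 S3 libraries each, so their S3 ratios are set in part by the added value and are not exact. The ratio of Xpo7 to Xpo1 was -2.38, -2.39 and -1.77 in S1 and 2.33, 3.24 and 4.16 in S3, below 0 in every S1 library and above it in every S3 library. The ratio of Slc2a1 to Slc2a3 went from 0.63 ± 0.75 to 6.61 ± 2.21 (SD, n = 3), that of Bcl2l1 to Bcl2 from 2.91 ± 1.56 to 10.6 ± 1.33, and that of Foxo3 to Foxo1 from 4.31 ± 0.20 to 8.12 ± 0.21. The ratios of Gata1 to Gata2 and of E2f2 to E2f1 were higher in S3 by 3.86 and 3.71. Of the 4 pairs that overlapped, Hk1 to Hk2, Ezh1 to Ezh2 and Ccnd3 to Ccnd2 differed by 3.4, 1.66 and 5.28 (exact permutation p = 0.2, 0.2 and 0.3), and Tal1 to Lyl1, which rose together, by 0.09 (p = 0.8). In these raw counts genes of a pair differ in length, so a ratio above 0 does not say which RNA was more frequent.

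**Figure D5:**
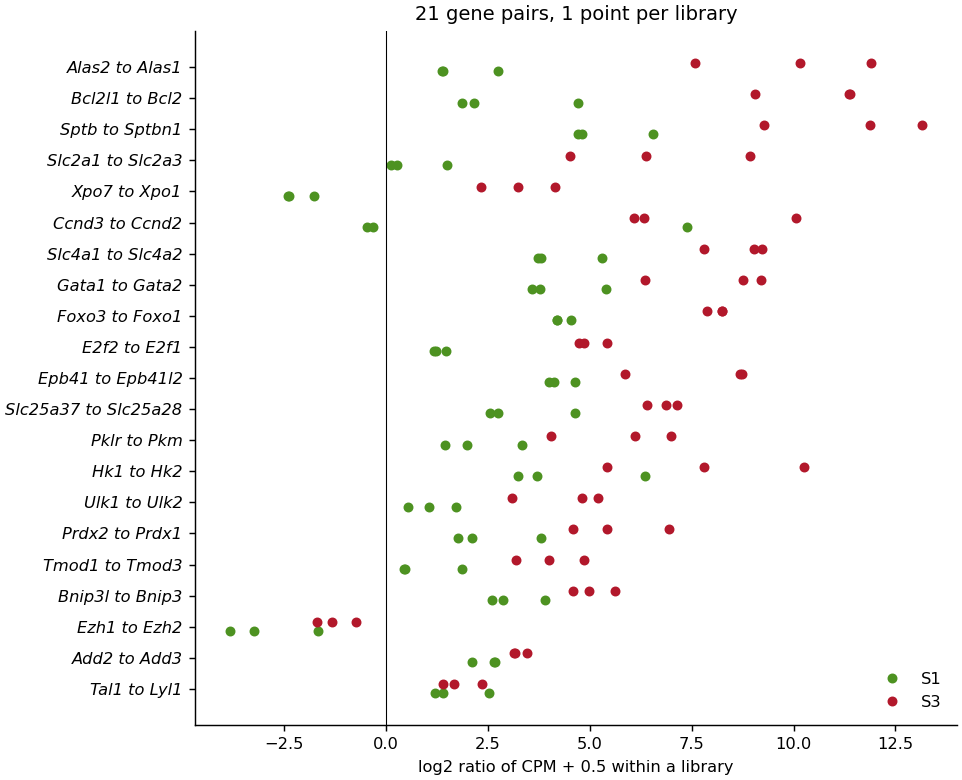
Log2 ratio of CPM plus 0.5 (x) for 21 of the 22 gene pairs (y) in each S1 library (green) and each S3 library (red), ordered by the difference of the means. In 17 of those shown all red points lie right of all green points, and Tal1 to Lyl1, at the bottom, differs by 0.09.

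Among genes with a symbol and a mean of 1000 normalized counts or more at the higher end, the 10 largest rises were Artn, 4930455G09Rik, Gm13881, Slfn14, Hbb-y, Hspa1a, Slc4a5, Gm15774, Reln and Slc2a1. Artn, a neurotrophic ligand of the GDNF family, had 13.1, 14.2 and 21.2 normalized counts in S1, 60.2, 63.6 and 284 in S2, and 2122, 3316 and 4668 in S3 (7.70 ± 1.18, adjusted p = 0.000821, edgeR). Slfn14, a ribonuclease known from reticulocytes that cleaves ribosomal RNA, rose from 111, 237 and 631 to 13920, 29090 and 72730 (6.89). Reln, an extracellular guidance protein best known from the brain, had 173 to 575 in S1 and 12620 to 40930 in S3 (6.08). Hspa1a, an inducible heat shock protein with a near-identical copy in Hspa1b, was level within groups, at 41.5 to 61.5 and 3718 to 5027 (6.45 ± 0.76). Slc4a5, a bicarbonate transporter of the same family as band 3, rose by 6.10.

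The 10 largest falls under the same limit were Slc25a4, St6galnac4, Pik3cd, Dctd, Trio, Kit, Lamc1, Trim35, Ripor2 and Dock5. Slc25a4, an exchanger of ADP and ATP across the inner mitochondrial membrane, had 3524, 3308 and 686 counts in S1 and 0, 2 and 0 in S3, at least 370-fold lower. Its paralog Slc25a5 had 3101 to 8497 normalized counts in S1 and 1734 to 4688 in S3 and did not pass (-1.12, adjusted p = 0.202, edgeR). Slc25a5 was at -1.69 without S3 replicate 2, and it passed with library totals (-1.74, adjusted p = 0.0458, edgeR). The sialyltransferase gene St6galnac4 had 2102, 1736 and 252 counts in S1 and 0, 0 and 1 in S3, at least 200-fold lower. Pik3cd, the leukocyte subunit of phosphoinositide 3-kinase, had 3184, 2325 and 1356 counts in S1 and 0, 10 and 0 in S3 (-8.44 ± 0.87, adjusted p = 4.12e-05). Trio (-7.88) and Dock5 (-7.17), guanine nucleotide exchange factors, fell too, as did Lamc1, a laminin chain (-7.42). S3 replicate 2 held the most S3 counts of each of these genes except St6galnac4, whose only S3 count was in replicate 3. Without S3 replicate 2 the fitted values of Pik3cd and Lamc1, then against counts of 0, were -13.91 and -14.80. In that setting Kit was at -15.71, Slc25a4 at -14 and Dock5 at -8.21, so the order of these falls depends on a few counts in S3 replicate 2.

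By share of the library, the largest gains belonged to Mki67 (0.426% of counts in S1, 1.36% in S3), Slc4a1 (0.0736 and 1.01%) and Malat1, a nuclear long noncoding RNA (0.184 and 1.03%). Without S3 replicate 3 the S3 share of Mki67 was 0.939%, and its gain moved from 0.934 to 0.513 percentage points and from the first rank to the fourth. Malat1 had 37760 to 67040 normalized counts in S1 and 431200 to 547400 in S3 (3.14 ± 0.40, adjusted p = 0.000142, edgeR). Tmcc2, a membrane protein of the endoplasmic reticulum, the ligase gene Marchf3, Sptb, Slc2a1, Epb41, Ank1 and Xpo7 made up the other 7 of the 10. Tmcc2 went from 0.0193 to 0.534% of counts and Xpo7 from 0.0117 to 0.404%. The largest losses were mitochondrial, with mt-Rnr2, mt-Rnr1, mt-Co1, mt-Nd1, mt-Cytb, mt-Nd5 and mt-Nd2 among the 10, together with the chaperone genes Hspa8 and Hsp90ab1 and with Ncl. Hsp90ab1 fell by 2.00 on the log2 scale, and Hspa8 had -1.40 and did not pass (adjusted p = 0.228), but did with the replicate block (-1.49, adjusted p = 0.00202).

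Whether the second step, S2 to S3, differed from the first, S1 to S2, was tested as the second log2 fold change minus the first, with its sign. A lower second step is thus a more negative change there, such as a larger fall, and not a smaller movement. Of 16555 genes 26 passed with a lower second step (0.157%), and 0 (0%) with a higher one (edgeR), with 1093 and 317 at an unadjusted p under 0.05. Stat5a fell by 0.89 in the first step and by 6.04 in the second, a difference of -5.15 ± 0.95 (adjusted p = 0.0427). Scarb2, a lysosomal membrane protein, went from 1218 to 957 and then to 32.9 (difference -4.52, adjusted p = 0.0373), and Prr12 from 1902 to 1493 and then to 143 (difference -3.03, adjusted p = 0.0399). Slc25a4 and St6galnac4 also passed (adjusted p = 0.0127 and 0.0259). On the rising side the 5 genes with the smallest p, with genes below 1000 normalized counts in all 3 population means left out, were Fam220a, Ikbkg, Denn2b, Xpo7 and Tbcel, at adjusted p = 0.0777 to 0.0985. Denn2b was level from S1 to S2, at 1003 and 1013, and stood at 12510 in S3. The test had few calls and they moved with the settings. With DESeq2 88 were higher and 231 lower, with the replicate block 24 and 67, and with at least 10 counts required in every S1 and S3 library 0 and 0. Leaving out S2 replicate 3 gave 7 and 80, leaving out S3 replicate 2 gave 7 and 464, and leaving out any S1 library or S2 replicate 1 or 2 gave 0 higher and 5 to 7 lower.

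Gene type and length took no part in the test. Of the genes called higher 94.0% were protein-coding, and of those called lower 90.7%, against 76.9% of all tested. The median span of the gene in the genome was 31.6 kb for genes called higher and 28.4 kb for those called lower, against 21.6 kb for genes not called, among the 81.8 to 96.3% of genes with a RefSeq entry. Genes called higher had a median of 2500 normalized counts in S1 and 9400 in S3, and genes called lower 519 and 16.9. These levels are the values the test compared, and the level sets how easily a gene can pass, so all of these differences are a description.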

How the data were processed

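Nascent RNA was labelled with 4sU, biotinylated, purified and sequenced by the authors from 18 samples, and one deposited table holds raw counts per gene for all of them, made by the authors with kallisto 0.43.0 on GRCm38 per the labels. The library kit was stranded, with 14 PCR cycles and no molecular identifiers, so floors cover counting error only. The transcript set and the treatment of introns are not given in the sources used here. Identifiers were paired with RefSeq symbols, and 598 list entries gave 590 matches.

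The 15 libraries of the 5 erythroid populations were fitted together in edgeR 4.0.16 (R 4.3.3) with TMM scaling, the default filter on low counts and the quasi-likelihood test, and S3 was compared with S1. Genes with a Benjamini-Hochberg adjusted p under 0.05 were called. The second step was set against the first as a difference of log2 fold changes in the same fit. A normalized count is the TMM-scaled CPM times the mean effective library size. Folds against libraries at 0 to 3 counts used a floor of 3 counts per library. Pairs of genes were compared as log2 ratios of CPM plus 0.5 with two-sided exact permutation tests. The fit was tested on simulated counts. Sequences come from RefSeq, and figures were drawn with matplotlib 3.10.9.

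Members and gene lists were chosen with earlier results of these data known. Named genes were Kit, Slc4a1 and Tfrc, list members that passed (largest first, with others where a small count needed names), the 10 largest rises and falls and the 5 of the second step with a mean of at least 1000 normalized counts, the 10 largest gains and losses of share, and the pairs. Some genes that this rule names are not reported here. Members named although they did not pass, beyond those, were chosen after their values were seen. Labels give each population replicates 1 to 3 and do not say whether these came from separate embryos or cultures, so p-values measure only the spread between these samples. Deviations from the population means correlated between same-numbered S1 and S3 libraries (r = 0.167, 0.14 and 0.208). The numbers were therefore taken to pair the libraries, from the data and not from a stated shared day. Differently numbered libraries were not compared in this way, so the pairing is an assumption on which calls with the block rest. Alternatives were DESeq2 1.42.0, other scalings and filters, the replicate block, other sets of libraries and leaving out each replicate.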

Additional observations from a re-analysis of the deposited data

How the results depend on the processing

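No gene called in S3 against S1 was called in the opposite direction under any alternative, but the numbers of calls moved. Against 1193 genes higher and 1997 lower, DESeq2 gave 1861 and 3188, library totals 586 and 3900, the replicate block 1841 and 3018, and at least 10 counts in every S1 and S3 library 1072 and 1171. Leaving out 1 replicate gave 591 to 1168 higher and 1131 to 2304 lower, and leaving out S3 replicates 1 and 3 together, which leaves 1 S3 library, gave 436 and 567. Against 0 higher and 26 lower in the second step, DESeq2 gave 88 and 231, library totals 1 and 63, no filter 38 and 209, the replicate block 24 and 67, all 18 libraries 5 and 82, and S3 replicates 1 and 3 left out 1 and 17. With at least 10 counts, and with only the libraries compared, both counts were 0. Leaving out 1 replicate gave 0 to 7 higher and 5 to 464 lower. The cause of these moves was not tested.

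Of 163 named genes that were called, 143 kept the call with library totals, 142 with only the libraries compared, 128 to 152 without 1 replicate and 89 without S3 replicates 1 and 3. With the replicate block all 163 kept it and 15 other named genes gained one. Of the 163, 28 lost the call in at least 5 of 17 alternatives, namely Aco1, Bbc3, Bnip3l, Ccne2, Cdkn1a, Erg, Ezh2, Fbxl5, Gabarap, Gins2, Hsp90ab1, Ikzf1, Klf3, Lcp1, Mcl1, Meis1, Ncapd2, Ncl, Orc1, Pfkm, Prim1, Rb1, Rhd, Rpl15, Sh2b3, Socs3, Stat5b and mt-Tm. Signs turned only for values that had not passed. With library totals Xpo1 had -0.36, Slc2a3 -0.15 and Hk1 -0.21. Vwf had 0.11 with the block, and Cd68 had 0.82 without S3 replicates 1 and 3. Without S3 replicate 2, which held all its S3 counts, Cd68 moved from -0.71 to a fitted -9.19 and passed (adjusted p = 0.00358, edgeR). Leaving out 1 replicate gave -0.79 to 0.73 for Vwf, -0.45 to 0.83 for Slc2a3, -0.42 to 0.31 for E2f1, and -0.19 to 0.5 for the log2 ratio Tal1 to Lyl1. Of the 22 pairs, 18 to 21 had no overlap under every alternative, and 20 rose in all 3 same-numbered pairs.

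Counts of 0 limit the falls. Of genes with a mean of 300 to 1000 counts in S1, 23.3 and 16.7% were at 0 in S3 replicates 1 and 3, and of those with 1000 to 3000 counts 3.89 and 3.86%, against at most 0.17% in S1, so that a loss could not be told from a count missed there. S3 replicate 3 had 30056070 counts in all, more than S1 replicate 3 with 27734246.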
